A study of Mus musculus with 9 samples.

Results

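YAP, its paralogue TAZ, the TEAD DNA-binding proteins and 4 of their target genes were read in mouse embryonic fibroblasts made senescent with p21 or p16. The members were found by gene symbol in the deposited count table: Yap1 and Wwtr1, which encode YAP and TAZ, Tead1 to Tead4, and the targets Ctgf, Cyr61, Ankrd1 and Amotl2. These are 10 of 24062 gene rows, and all 10 passed the filter on low counts that left 14572 genes to test. Ctgf and Cyr61 are the older symbols of Ccn2 and Ccn1.

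YAP and TAZ are transcriptional co-activators that cannot bind DNA themselves. When the Hippo kinases are inactive, as in spread cells on a stiff surface, both enter the nucleus and bind a TEAD protein, which recognises DNA. When the kinases phosphorylate them they are held in the cytoplasm or degraded, so much of the control acts on the proteins and is not read by RNA. CTGF and CYR61 are secreted matrix-associated proteins, ANKRD1 is an ankyrin-repeat protein best known from muscle, and AMOTL2 is an angiomotin that binds YAP and restrains it.

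The cells were primary embryonic fibroblasts of C57BL/6 mice, and each of the 9 libraries is named by its title. The control group (3 libraries) was given the empty lentiviral vector, the p21 group (3) a lentivirus for p21 and the p16 group (3) a lentivirus for p16. Both proteins are cyclin-dependent kinase inhibitors, and RNA was taken at day 10. The titles of the p21 and p16 libraries call the cells senescent and those of the control libraries do not, but a separate cell status field reads senescent for control and p21 libraries alike and is not filled in for p16. Nothing in the labels says that the 3 libraries of a group came from separate embryos or cultures, so each p-value is set against the spread of these libraries alone.

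Library totals ran from 56864342 to 76054820 counts. Levels are given as CPM, counts per 1000000 after TMM scaling, as mean ± SD over 3 libraries. Fold changes and p-values are from the quasi-likelihood test of edgeR, adjusted over all 14572 genes, with a threshold of 0.05. Cdkn1a, the p21 gene, ran from 317 to 399 CPM in control, from 1085 to 1218 CPM in p21 and from 394 to 435 CPM in p16 libraries, and stood 3.09-fold above control in p21 cells (adjusted p = 8.05e-06). Cdkn2a, the locus of p16, ran from 59.6 to 68.8 CPM in control and from 944 to 1069 CPM in p16 libraries, 16.1-fold above control (adjusted p = 6.8e-07). In p21 libraries it ran from 79.6 to 113 CPM, 1.52-fold above control (adjusted p = 0.0027). Fibroblast markers were high in sum in every library, with 25125 to 36558 CPM over 9 genes, although Dcn had group means of only 2.19 to 3.98 CPM and Lum of 0.834 to 0.996 CPM. Of the 9, 1 rose and 1 fell in p21 cells and 0 passed in p16 cells, where 39.9% and 7.22% of all genes were called. Pdgfra was 2.37-fold lower in p21 cells (12.4 ± 3.52 against 29.4 ± 9.67 CPM, adjusted p = 0.00448) and Thy1 1.15-fold higher (adjusted p = 0.0199). These 2 calls were not rerun with replicates 1 and 2 only or with other settings. Replicate 3 of each group stood apart in Xist, at 158 to 397 CPM against no more than 1.34 CPM in the other libraries. Ddx3y, on the Y chromosome, was at 1.1 CPM in control replicate 3, at 1.26 CPM in p16 replicate 3 and at 10.8 CPM in p21 replicate 3, against 50.1 to 68.5 CPM in replicates 1 and 2. Replicate 3 thus differs from replicates 1 and 2 in sex-linked RNA in every group, and the p21 library of that number holds both transcripts. For the genes named, calls that were lost with replicates 1 and 2 only are given beside the result.

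In p21 cells the TAZ gene Wwtr1 and, by a smaller amount, Yap1 rose, whereas Tead2, Tead3 and Cyr61 fell. Each change was below 1.3-fold in size. Thus 2 of the 10 genes were higher and 3 lower than in control cells. Over all genes tested 39.9% passed in this comparison, 19.3% higher and 20.7% lower, so 5 of 10 is near the background. The libraries of the 2 groups did not overlap for the same 5 genes, Wwtr1 and Yap1 above and the other three below, against 49.8% of all genes tested, 24.0% above and 25.7% below. The median log2 fold change of the 10 genes was 0.014 against -0.011 over all genes.

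The co-activators were read first. Wwtr1 (chromosome 3, 57455649 to 57575910, minus strand, GRCm38) stood at 132, 124 and 118 CPM in control replicates 1 to 3 and at 164, 167 and 146 CPM in p21 replicates 1 to 3. Every p21 library lay above every control library. The difference was 1.27-fold (log2 fold change 0.35 ± 0.066 SE, adjusted p = 0.00261) and passed under all 17 alternatives run (adjusted p from 1.15e-05 to 0.0127). Yap1 (chromosome 9, 7931999 to 8004596, minus strand) stood at 233, 229 and 212 CPM in control and at 248, 251 and 243 CPM in p21 libraries. The groups did not overlap here either, but the difference was 1.1-fold (log2 0.14 ± 0.046 SE, adjusted p = 0.037). That call was lost under 8 of 17 alternatives (adjusted p from 0.0112 to 0.114). They include library size scaling alone (0.0699), replicates 1 and 2 only (0.114) and leaving out control replicate 2 (0.0628), control replicate 3 (0.0883), p21 replicate 1 (0.0818), p21 replicate 2 (0.0924) or p16 replicate 1 (0.0561), as well as a fit of these 2 groups alone (0.0756).

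**Figure D1:**
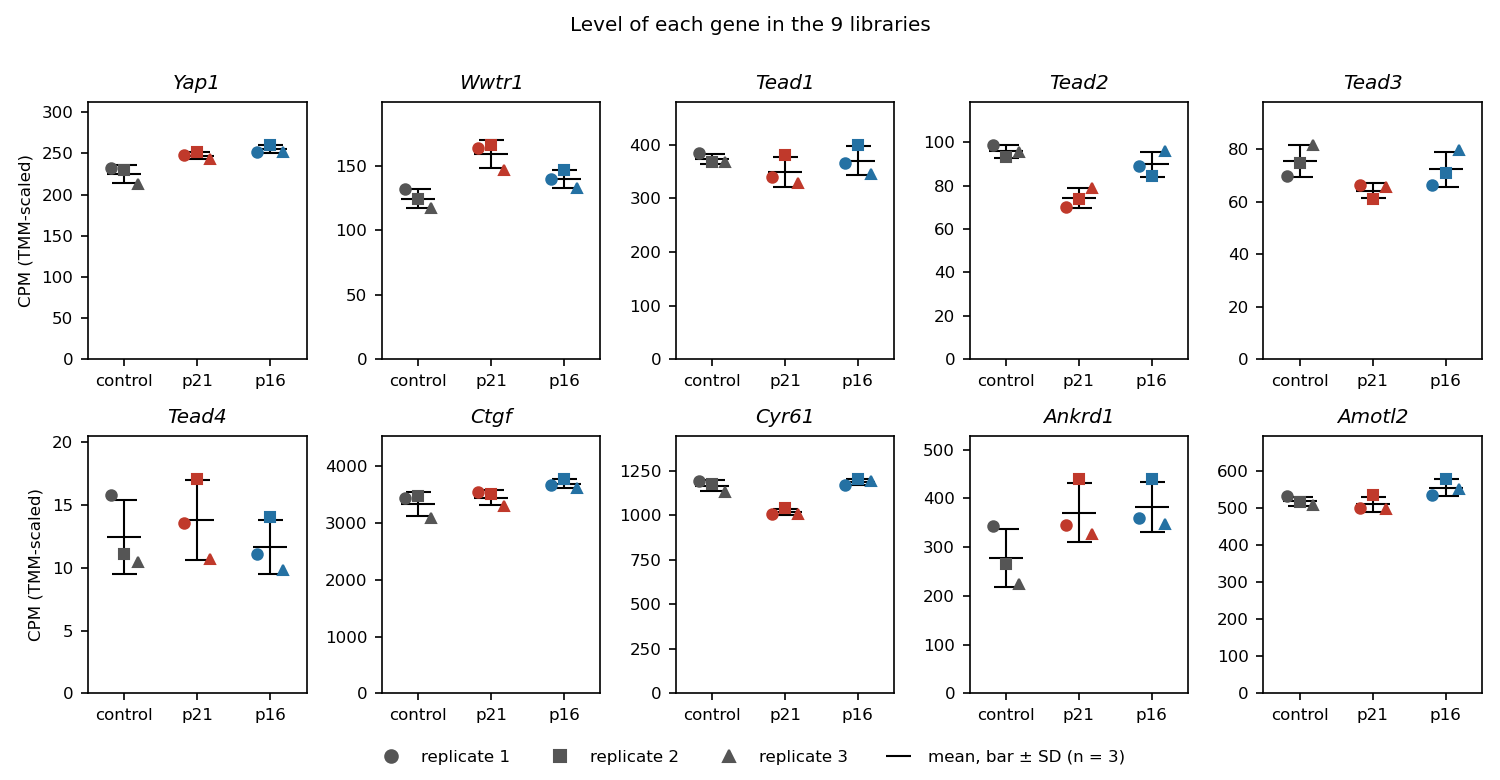
TMM-scaled CPM of the 10 genes (one panel each, linear axis from 0) in control, p21 and p16 libraries, with symbols for replicates 1 to 3 and a bar for the mean ± SD (n = 3). Wwtr1 lies higher and Tead2 and Cyr61 lie lower in all 3 p21 libraries than in all 3 control libraries, while Ctgf and Amotl2 in p21 libraries overlap the control libraries.

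The TEAD genes encode 4 related proteins that bind the same DNA motif. Tead2 (chromosome 7, 45215753 to 45233644, plus strand) stood at 99, 93.1 and 95.4 CPM in control and at 70, 74 and 79 CPM in p21 replicates 1 to 3. All p21 libraries lay below all control libraries, 1.29-fold lower (log2 fold change -0.37 ± 0.062 SE, adjusted p = 0.00148). It passed under all 17 alternatives (adjusted p from 3.07e-06 to 0.00932). Tead3 (chromosome 17, 28331671 to 28350817, minus strand) stood at 69.7, 74.9 and 81.9 CPM in control and at 66.4, 61 and 65.6 CPM in p21 libraries. It was 1.17-fold lower (log2 -0.23 ± 0.08 SE, adjusted p = 0.0434), with control replicate 1 just above p21 replicate 1. The Tead3 call was lost under 9 of 17 alternatives (adjusted p from 0.00701 to 0.148). These were RLE size factors (0.0508), a stricter filter on low counts (0.0592), replicates 1 and 2 only (0.0665) and leaving out control replicate 2 (0.0915), control replicate 3 (0.142), any p21 library (0.0851, 0.148 and 0.0733 for replicates 1 to 3) or p16 replicate 2 (0.0674).

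Tead1 and Tead4 did not pass. Tead1 (chromosome 7, 112679318 to 112906807, plus strand) stood at 384, 368 and 367 CPM in control and at 340, 380 and 328 CPM in p21 libraries (adjusted p = 0.297). The groups overlapped through p21 replicate 2. Tead4 (chromosome 6, 128224288 to 128300823, minus strand) had means of 12.4 ± 2.93 CPM in control and 13.8 ± 3.19 CPM in p21 cells, with widely overlapping libraries (adjusted p = 0.594). Its 95% interval of the log2 fold change ran from -0.31 to 0.61, the widest of the 10 genes in this comparison.

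Of the targets only Cyr61 passed in this comparison. Cyr61 (chromosome 3, 145646976 to 145649981, minus strand), which encodes an integrin ligand of the CCN family, stood at 1193, 1175 and 1131 CPM in control and at 1008, 1040 and 1008 CPM in p21 replicates 1 to 3. The p21 libraries formed a narrow band below the control libraries. The difference was 1.15-fold (log2 fold change -0.2 ± 0.04 SE, adjusted p = 0.00394) and passed under all 17 alternatives (adjusted p from 4.44e-05 to 0.0249). Ctgf (chromosome 10, 24595442 to 24598683, plus strand), the other CCN gene of the set, stood at 3441, 3466 and 3085 CPM in control and 3537, 3499 and 3300 CPM in p21 libraries. The groups overlapped, and the difference did not pass (log2 0.049, 95% interval -0.076 to 0.17, adjusted p = 0.517). Amotl2 (chromosome 9, 102716672 to 102733418, plus strand) stood at 531, 515 and 507 CPM in control and at 499, 534 and 498 CPM in p21 replicates 1 to 3. Its p21 libraries lay just outside the control range on both sides, with means of 510 ± 20.4 against 518 ± 12.2 CPM (adjusted p = 0.744). Ankrd1 (chromosome 19, 36111961 to 36120099, minus strand) had the largest spread among the 4 targets relative to its mean. It stood at 342, 266 and 225 CPM in control and at 345, 440 and 328 CPM in p21 replicates 1 to 3, so that control replicate 1 lay above p21 replicate 3. Its 1.34-fold difference missed the threshold (log2 0.42 ± 0.16 SE, adjusted p = 0.066). Without control replicate 1 it passed (adjusted p = 0.0107), as it did with DESeq2 (0.0193), over a range from 0.01 to 0.214 for all 17 alternatives.

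The TEAD motif GGAATG was looked for around the transcription starts of the members, because these 10 genes are read here as TEAD factors, their partners and their targets. RefSeq windows of 300 bases (250 before the start and 50 after it, GRCm38.p6) were searched on both strands, with CATTCC as the same motif read on the other strand. Windows were matched for 7 of the 10 genes: Yap1, Wwtr1, Tead2, Tead3, Cyr61, Ankrd1 and Amotl2. The motif was present in at least 1 window of 6 of these 7 genes, and in 14.7% of the 32851 windows and 16.6% of the 27025 genes of the whole table. Tead2 is the matched gene without it. The lines below give 30 bases around the motif for the targets and the co-activators, each read so that GGAATG, in capitals, runs 5′ to 3′, with the distance upstream of the RefSeq start to the motif's first base on the gene's strand.
Cyr61, 103 bases upstream, chr3:145650071-145650100, plus strand: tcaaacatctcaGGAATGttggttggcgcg
Ankrd1, 123 bases upstream, chr19:36119950-36119979, minus strand: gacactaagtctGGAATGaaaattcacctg
Ankrd1, 210 bases upstream, chr19:36120037-36120066, minus strand: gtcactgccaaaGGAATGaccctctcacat
Amotl2, 65 bases upstream, chr9:102717727-102717756, minus strand: gctgctatgccaGGAATGtgagagtttcag
Yap1, 141 bases upstream, chr9:8004720-8004749, minus strand: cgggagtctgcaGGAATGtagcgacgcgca
Wwtr1, 136 bases upstream of 1 of 2 starts, chr3:57576029-57576058, minus strand: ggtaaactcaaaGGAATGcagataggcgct
The 250 bases before the Ankrd1 start lie wholly in exons annotated in GENCODE M21, those before the Amotl2 start hold 136 exon bases, and those before the Cyr61 start hold 0. A match is a description of these letters and does not show binding. Genes with the motif differed in direction in p21 cells: Wwtr1 and Yap1 were higher, Cyr61 and Tead3 lower, and Amotl2 and Ankrd1 did not pass. The Yap1 and Tead3 calls were lost under some alternatives.

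Because Cyr61 was the target that passed, the whole 250 bases before its RefSeq start are shown on the gene's strand, with the motif in capitals as CATTCC (chr3:145649986-145650235, minus strand, GRCm38.p6).
Cyr61 upstream: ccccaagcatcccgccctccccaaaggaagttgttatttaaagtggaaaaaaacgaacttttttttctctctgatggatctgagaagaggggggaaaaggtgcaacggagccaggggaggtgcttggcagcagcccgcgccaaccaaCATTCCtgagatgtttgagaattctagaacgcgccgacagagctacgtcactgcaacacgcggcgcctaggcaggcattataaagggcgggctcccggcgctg
The window holds 1 match, and Ankrd1 was the only one of the 3 matched targets with 2.

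Cells given p16 had fewer calls among these genes. Of the 10, Yap1 alone passed, higher, and none was lower (1 of 10 against 7.22% of all genes tested, 3.57% higher and 3.65% lower). At an unadjusted p under 0.05 there were 4 higher and 0 lower, a looser threshold at which all genes were not counted. DESeq2 called 2 of the 10 higher and 0 lower, and 932 of all 14572 genes higher and 876 lower. Yap1 stood at 252, 261 and 252 CPM in p16 replicates 1 to 3, above all control libraries, 1.13-fold higher (log2 fold change 0.18 ± 0.046 SE, adjusted p = 0.0439). That call was lost under 11 of 17 alternatives (adjusted p from 0.00415 to 0.142). Leaving out any library except control replicate 1 ended it. The adjusted p was 0.0912 without control replicate 2, 0.0723 without control replicate 3, 0.0694, 0.057 and 0.0507 without p21 replicates 1 to 3, and 0.108, 0.142 and 0.0843 without p16 replicates 1 to 3. It also ended with no filter on low counts (0.056), with these 2 groups alone (0.0757) and with replicates 1 and 2 only (0.123).

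The libraries of p16 and control cells did not overlap for 5 of the 10 genes, each with p16 above: Yap1, Wwtr1, Ctgf, Ankrd1 and Amotl2. The same held, with p16 above, for 13.6% of all genes tested, for 15.1% with p16 below, and in either direction for 28.7%. Wwtr1 stood at 140 ± 6.86 against 125 ± 7.31 CPM (1.12-fold, adjusted p = 0.156). Ctgf stood at 3668, 3775 and 3621 CPM in p16 replicates 1 to 3, all above its highest control library (1.11-fold, adjusted p = 0.142). Ankrd1 stood at 360, 440 and 347 CPM, with p16 replicate 3 just above control replicate 1 (1.38-fold, adjusted p = 0.116). Amotl2 stood at 555 ± 21.8 against 518 ± 12.2 CPM (1.07-fold, adjusted p = 0.231). In a fit with the replicate number as a block, 4 genes passed in place of 1: Yap1, Wwtr1 (adjusted p = 0.025), Ctgf (0.0402) and Ankrd1 (0.0186). Over all 14572 genes that fit called 1252 higher and 1221 lower, in place of 520 and 532. Ankrd1 also passed without control replicate 1 (0.0395) and with DESeq2 (0.0289). Over the 17 alternatives the adjusted p ran from 0.025 to 0.367 for Wwtr1, from 0.0402 to 0.337 for Ctgf and from 0.0186 to 0.322 for Ankrd1.

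None of the TEAD genes passed in p16 cells, where 7.22% of all genes were called. The adjusted p-values were 0.946 for Tead1, 0.409 for Tead2, 0.698 for Tead3 and 0.828 for Tead4. At an unadjusted p under 0.05 none of these 4 was lower or higher, and DESeq2 called none. Tead2 stood at 89, 84.7 and 96 CPM in p16 replicates 1 to 3, overlapping the control libraries. Cyr61 stood at 1171, 1205 and 1190 CPM in p16 libraries, also within or just above the control range (log2 fold change 0.027, 95% interval -0.062 to 0.12, adjusted p = 0.738).

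**Figure D2:**
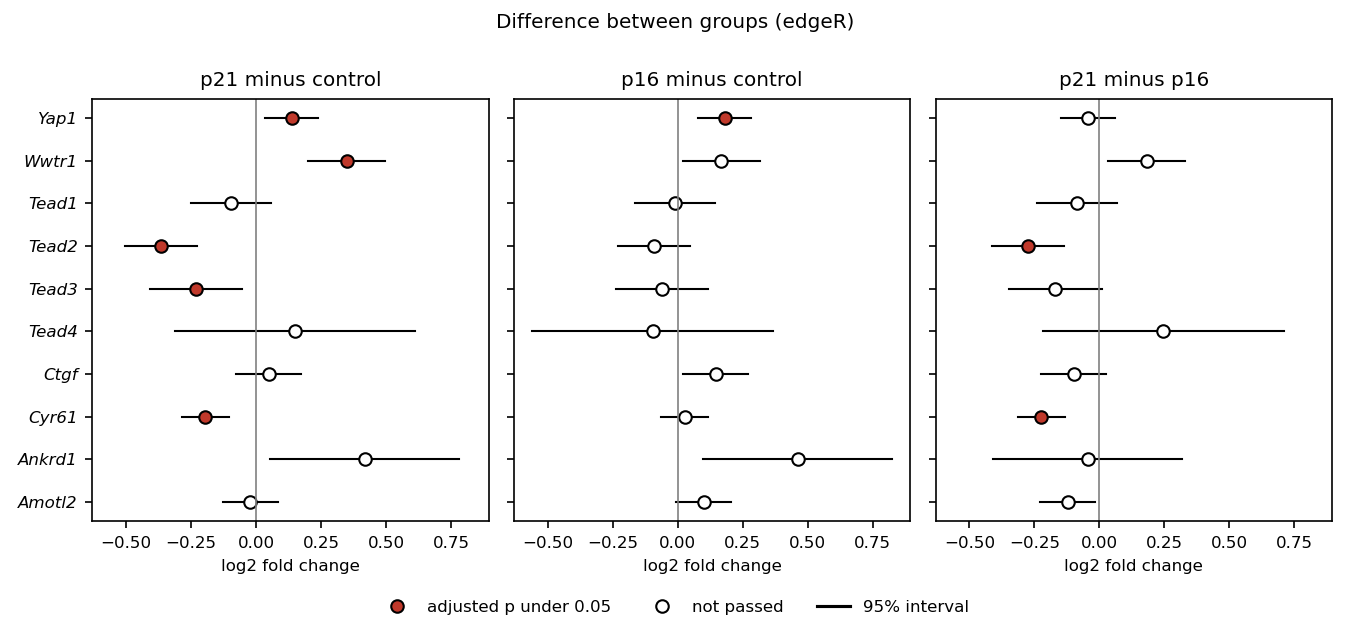
Log2 fold change (horizontal axis) of each gene with its 95% interval, in panels for p21 against control, p16 against control and p21 against p16, with filled points for an adjusted p under 0.05. Cyr61 and Tead2 lie left of 0 in the panels of p21 against control and p21 against p16, and Yap1 lies right of 0 in both panels against control.

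The p21 and p16 cells were then compared directly, a comparison that also tests the difference between the 2 effects against control. Cyr61 and Tead2 were lower in p21 than in p16 cells, and no member was higher (2 of 10 against 12.8% of all genes tested, 6.19% higher and 6.64% lower). The libraries did not overlap for 6 of the 10, all with p21 below p16: Cyr61, Tead2, Tead3, Yap1, Ctgf and Amotl2 (18.5% of all genes tested with p21 below, 17.5% above and 36.0% in either direction). At an unadjusted p under 0.05 there was 1 higher, Wwtr1, and DESeq2 called 0 higher. Cyr61 was 1.17-fold lower, with 1019 ± 18.1 CPM after p21 and 1189 ± 17.2 CPM after p16 (log2 -0.22 ± 0.04 SE, adjusted p = 0.00824). Its p21 libraries, all at or below 1040 CPM, lay below its p16 libraries, all at or above 1171 CPM. Without p21 replicate 1 the adjusted p was 0.0503, and the other 16 alternatives passed (from 4.31e-06 to 0.0503 over all 17). Tead2 was 1.21-fold lower (74.3 ± 4.53 against 89.9 ± 5.74 CPM, adjusted p = 0.0211). That call was lost under 4 of 17 alternatives (from 0.00163 to 0.0968), namely without p21 replicate 1 (0.0968), p21 replicate 2 (0.0664), p16 replicate 1 (0.0658) or p16 replicate 3 (0.0703).

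Wwtr1 was 1.14-fold higher in p21 than in p16 cells and did not pass (adjusted p = 0.1), although its call against control passed only in p21 cells in the fit of group means. The difference of the 2 effects was thus not shown for Wwtr1 there. It passed with the replicate number as a block (adjusted p = 0.0128) and without p21 replicate 3 (0.044), over a range from 0.0128 to 0.268. Yap1 differed little, with 247 ± 3.96 CPM after p21 and 255 ± 4.99 CPM after p16 (95% interval of the log2 fold change -0.15 to 0.059, adjusted p = 0.576). For Ankrd1 the means were 371 ± 60.1 and 382 ± 50.5 CPM (adjusted p = 0.888), with an interval from -0.41 to 0.32. Both comparisons against control use the same 3 control libraries, so their values for a gene are not independent.

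Levels of different genes were compared only per length, as CPM per kb (kilobase) of all exons of the gene in GENCODE M21. In control cells the order was Ctgf (1164 ± 74.5 CPM per kb), Cyr61 (578 ± 15.8), Ankrd1 (96.2 ± 20.7), Amotl2 (82.3 ± 1.94), Tead1 (27.5 ± 0.724), Wwtr1 (26.1 ± 1.53), Yap1 (24.3 ± 1.17), Tead2 (20 ± 0.612), Tead3 (11.2 ± 0.908) and Tead4 (3.46 ± 0.815). The 2 CCN genes were thus the most abundant, far above the factors. Neighbours whose control libraries overlapped were Ankrd1 and Amotl2, Tead1 and Wwtr1, and Wwtr1 and Yap1. In p21 cells Wwtr1 (33.3 ± 2.27 CPM per kb) stood above Yap1 (26.7 ± 0.428) and Tead1 (25.7 ± 2.01), and only the last pair overlapped. In p16 cells the order was as in p21 cells, with Wwtr1, Yap1 and Tead1 overlapping in turn. With the length of the longest transcript, 6 of 10 places in the control order were kept, since Yap1 then stood at 42.6 and Wwtr1 at 26.5 CPM per kb. The order of Yap1, Wwtr1, Tead1 and Tead2 depends on the gene model.

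Within families, the shares of transcripts per length do not depend on the scaling of libraries. Wwtr1 made up 51.8 ± 0.577% of Yap1 and Wwtr1 together in control, 55.4 ± 1.35% in p21 and 51.5 ± 0.853% in p16 cells. The p21 libraries, from 53.8 to 56.2%, lay above all control and p16 libraries. With longest transcript lengths the same shares were 38.4, 41.9 and 38.2%. The sum of Yap1 and Wwtr1 was 50.4 ± 2.64 CPM per kb in control, 60 ± 2.68 in p21 and 56.8 ± 1.92 in p16 cells. The lowest p21 and p16 sums, 56.9 and 55.1, were above the highest control sum of 52.8.

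Among the TEAD genes Tead1 held the largest share in every library, 44.2 ± 0.534% in control, 47 ± 1.82% in p21 and 45.4 ± 2.81% in p16 cells. Tead2 held 32.2 ± 0.207, 28.4 ± 2.15 and 31.3 ± 2.38%. Its p21 shares, up to 30.9%, lay below its control shares, from 32%, but p21 and p16 shares overlapped. Tead3 held 18.1 ± 1.69, 17.6 ± 1.48 and 17.9 ± 1.58%, and Tead4 5.54 ± 1.18, 6.98 ± 1.35 and 5.37 ± 0.892%, with overlapping libraries for both. With longest transcript lengths the control shares of Tead1 to Tead4 were 40.9, 30.8, 23.9 and 4.4%, so their size depends on the gene model. The sum over the 4 genes was 62.2 ± 1.51 CPM per kb in control, 54.7 ± 2.28 in p21 and 60.1 ± 1.58 in p16 cells. Every p21 sum, up to 57.3, lay below every control sum, from 60.8, and every p16 sum, from 58.5, while p16 and control overlapped. So in p21 libraries the summed co-activator genes lay above, and the summed TEAD genes below, all control libraries. The co-activator sum lay above all control libraries in p16 cells too. Of single genes, 24.0% lay above and 25.7% below all control libraries in p21 cells, and sums of other genes were not compared. The sums hold genes already called in p21 cells, so they are not a separate result.

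**Figure D3:**
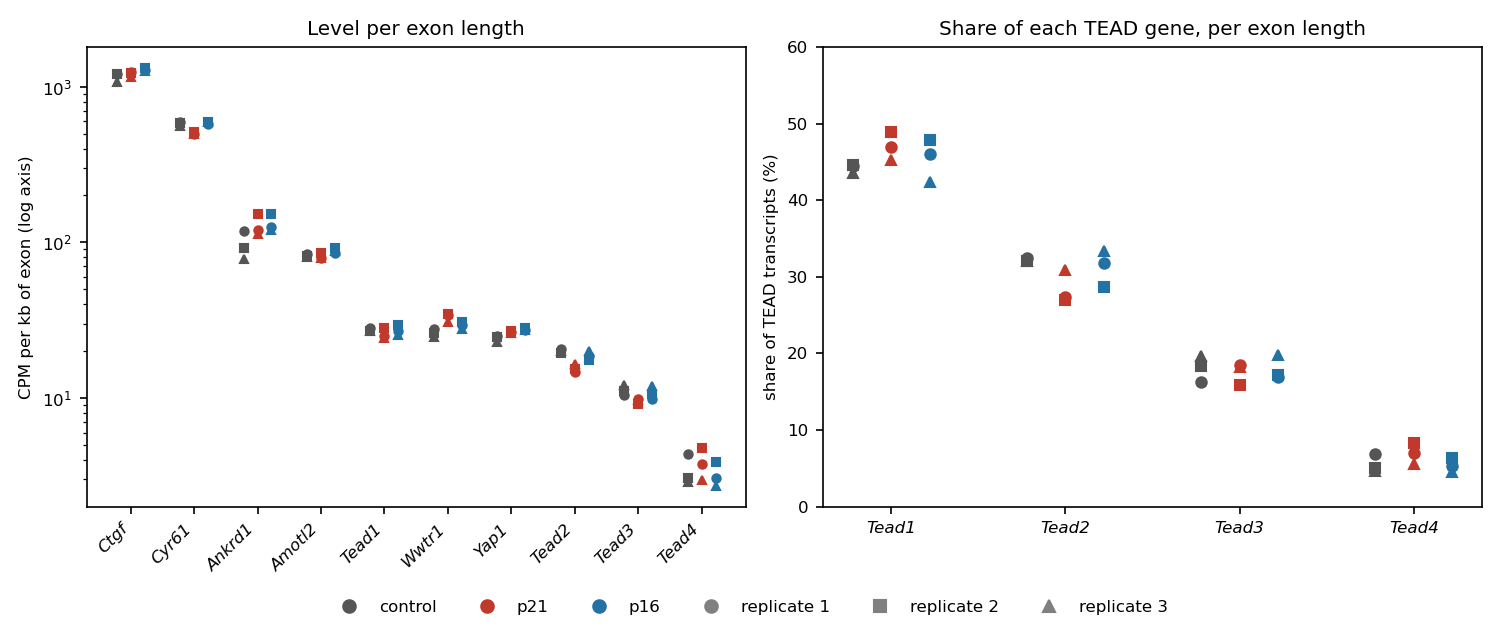
Left, CPM per kb of exon of the 10 genes on a log axis. Right, percent of the summed TEAD transcripts per exon length held by each TEAD gene, 1 point per library, coloured by group with symbols for replicates. Ctgf and Cyr61 lie highest on the left, and the Tead2 shares of p21 libraries lie below those of control libraries on the right.

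The rest of the pathway was read from lists, described here by counts and medians. The lists share genes, so their counts are not separate. Lats2 stands among the Hippo genes and the further targets, and Ptpn14 among the cofactors and the further targets. The CCN family includes the members Ctgf and Cyr61. Of 18 Hippo kinase and scaffold genes, 2 rose and 5 fell in p21 cells, with a median log2 fold change of -0.0013 (all genes -0.011). Over all genes 19.3% were higher and 20.7% lower, so 7 of 18 called is near the background of 39.9%. With 1 library left out, 1 to 4 rose and 1 to 4 fell, and with replicates 1 and 2 only 3 fell. Dchs1, an atypical cadherin gene upstream of the kinases, fell most, from 10.4 ± 2.57 to 4.38 ± 0.968 CPM (2.37-fold, adjusted p = 0.00164). The kinase gene Taok3 was 1.14-fold higher (adjusted p = 0.0114). The LATS kinases phosphorylate YAP and TAZ directly, and their genes moved oppositely. Lats1 was 1.12-fold lower and Lats2, itself a YAP target, 1.26-fold higher (adjusted p = 0.0219 for Lats1 and 0.0221 for Lats2). The Lats1 call was lost with replicates 1 and 2 only (0.0985) and without control replicate 2 (0.0763), control replicate 3 (0.0609), p21 replicate 1 (0.103) or p21 replicate 3 (0.0582). The Lats2 call was lost without control replicate 2 (0.0674), control replicate 3 (0.0622), p21 replicate 1 (0.0644) or p21 replicate 2 (0.0741). Over 17 alternatives the adjusted p ran from 0.007 to 0.103 for Lats1 and from 0.000729 to 0.0741 for Lats2.

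Of 8 tested genes for angiomotins and other cofactors of YAP or TEAD, 4 rose and 0 fell in p21 cells, where 19.3% of all genes were higher and 20.7% lower (median 0.17; also 0 lower at an unadjusted p under 0.05 and with DESeq2). The angiomotin genes Amot (102 ± 18.4 against 67.6 ± 4.26 CPM, 1.51-fold, adjusted p = 0.00812) and Amotl1 (1.2-fold, adjusted p = 0.00739) rose, unlike Amotl2. Wbp2, whose product binds the WW domains of YAP and TAZ, was 1.4-fold higher (adjusted p = 0.000284).

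A further list of 18 YAP and TAZ targets had 7 genes higher and 0 lower in p21 cells (median 0.24). Over all genes 19.3% were higher and 20.7% lower, so 7 of 18 called is near the background of 39.9%, and 11 did not pass. At an unadjusted p under 0.05 1 was lower, and with DESeq2 0 were lower. With 1 library left out, 5 to 9 were higher and 0 lower. Igfbp3, which encodes an IGF binding protein, was 3.09-fold higher (24.1 ± 1.56 against 7.79 ± 1.11 CPM, adjusted p = 3.94e-05). The matrix gene Ccdc80 was 1.59-fold (864 ± 21.2 against 542 ± 43 CPM, adjusted p = 3.38e-05), Fjx1 1.65-fold (adjusted p = 6.6e-05) and F3, the gene of the coagulation receptor tissue factor, 1.57-fold higher (adjusted p = 0.00135). Cyr61 thus fell while these named targets, those of the list with the lowest adjusted p, rose. Among 5 tested CCN family genes Cyr61 was the only one called, 0 being higher (1 higher at an unadjusted p under 0.05, 0 with DESeq2). With replicates 1 and 2 only, 2 CCN genes were lower.

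**Figure D4:**
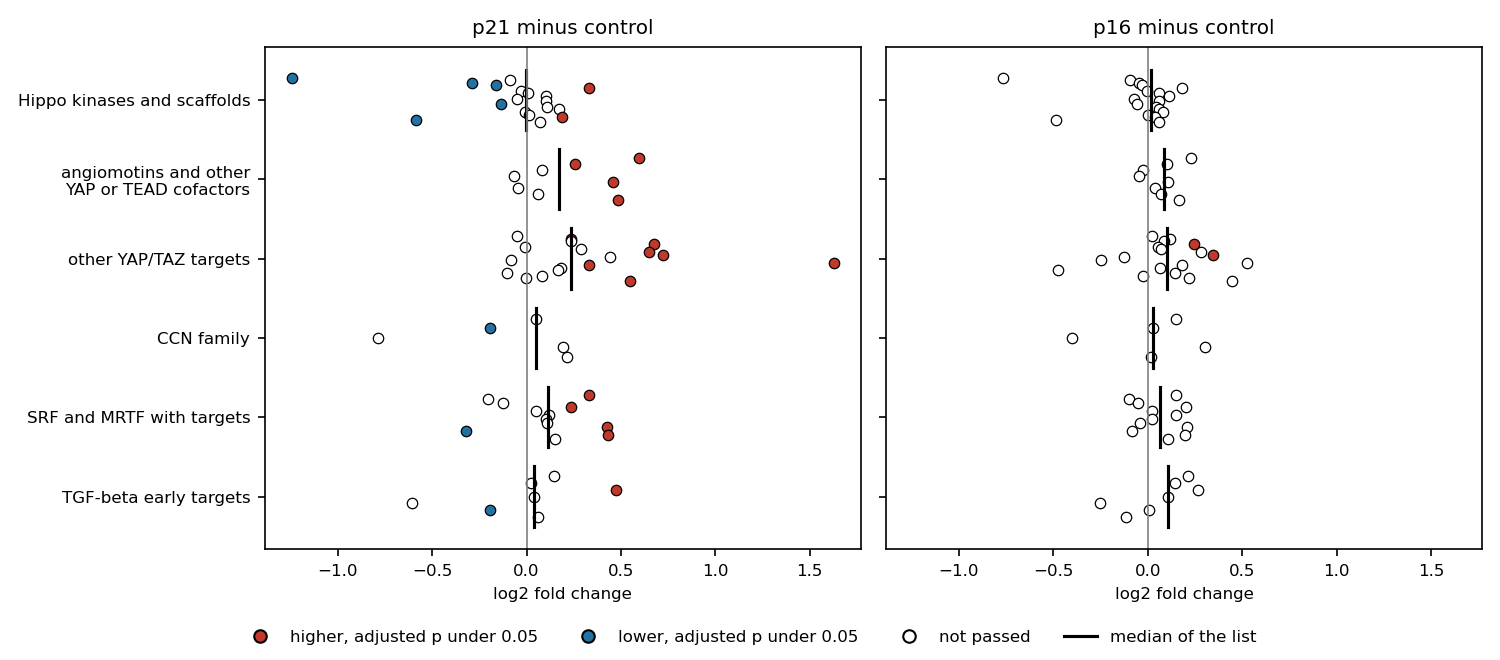
Log2 fold change (horizontal axis, shared by both panels) of every tested gene of 6 pathway lists in p21 minus control and p16 minus control, filled where the adjusted p was under 0.05, with a line at the list median. All filled points of the target and cofactor lists lie right of 0 in the p21 panel, and only 2 points are filled in the p16 panel.

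In p16 cells 2 of the 18 further targets rose and 0 fell, against 3.57% of all genes higher and 3.65% lower (median 0.1). DESeq2 called 6 of the 18 higher and 1 lower, and 932 of all 14572 genes higher and 876 lower. At an unadjusted p under 0.05, 7 of the 18 were higher and 1 lower, with all genes not counted at that threshold. Fjx1 was 1.27-fold and Ccdc80 1.19-fold higher (adjusted p = 0.0207 and 0.0343). The Fjx1 call was lost with replicates 1 and 2 only (0.0646) and without control replicate 2 (0.0562) or p16 replicates 1, 2 or 3 (0.0502, 0.0859 and 0.0619), and its adjusted p ran from 0.000526 to 0.0859. The Ccdc80 call was lost under 9 of 17 alternatives (from 0.00206 to 0.112), among them with replicates 1 and 2 only (0.0933) and without control replicate 1 (0.0539), control replicate 3 (0.0671), p21 replicate 1 (0.0613), p21 replicate 2 (0.0511) or p16 replicates 1, 2 or 3 (0.112, 0.107 and 0.0762). No Hippo kinase, cofactor or CCN gene passed in p16 cells with edgeR. With DESeq2 1 kinase or scaffold gene was lower and 1 CCN gene higher, and at an unadjusted p under 0.05 there were 2 lower kinase or scaffold genes, 1 higher cofactor gene and 2 higher CCN genes. With the replicate number as a block, 6 further targets were higher and 1 lower, 1 cofactor gene was higher, 2 CCN genes were higher and 1 lower, and 2 kinase or scaffold genes were lower. That fit called 1252 of all 14572 genes higher and 1221 lower.

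Between p21 and p16 cells 4 of the 18 further targets were higher and 1 lower in p21, where 6.19% of all genes were higher and 6.64% lower. Igfbp3 was 2.15-fold (adjusted p = 0.0018), Ccdc80 1.35-fold (adjusted p = 0.00235) and Fjx1 1.3-fold higher (adjusted p = 0.00965). Nuak2, a kinase gene, was 1.19-fold lower, at 33.6 ± 0.622 against 39.9 ± 0.871 CPM (adjusted p = 0.00665), the same direction as Cyr61. Among the cofactors Wbp2 was 1.25-fold higher (adjusted p = 0.0109). With the replicate number as a block 7 further targets were higher and 2 lower, 4 cofactor genes were higher, and 3 kinase or scaffold genes were lower. Of all 14572 genes that fit called 1715 higher and 1781 lower, in place of 902 and 968.

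Some YAP and TAZ targets are also driven by SRF, with its partners of the MRTF family, or by TGF-beta, so both were read beside them. Of 12 SRF and MRTF genes 4 rose and 1 fell in p21 cells (median 0.11), so 5 of 12 called is near the 39.9% of all genes. With 1 library left out, 2 to 5 rose and 1 to 3 fell. Srf itself fell 1.25-fold, from 160 ± 4.97 to 128 ± 2.79 CPM (adjusted p = 0.000401), and lay 1.18-fold below its level in p16 cells (adjusted p = 0.00824). The contractile genes Tagln and Myl9 were 1.35-fold and 1.34-fold higher (adjusted p = 0.00292 and 0.00118). Of 7 TGF-beta pathway and early target genes 1 rose and 1 fell, where 39.9% of all genes were called. The receptor gene Tgfbr1 was 1.14-fold lower with overlapping libraries (adjusted p = 0.0493). That call was lost under 13 of 17 alternatives (adjusted p from 0.00757 to 0.181), among them replicates 1 and 2 only (0.101), DESeq2 (0.057) and leaving out control replicate 2 (0.116), control replicate 3 (0.181), p21 replicate 1 (0.179), p21 replicate 2 (0.145) or p16 replicates 1, 2 or 3 (0.0763, 0.0831 and 0.0674). Smad7, the inhibitory SMAD gene, was 1.39-fold higher (adjusted p = 0.0151). Leaving out p21 replicate 2 ended that call (0.053, over a range from 0.000166 to 0.053). In p16 cells 0 of the 12 and 0 of the 7 genes passed with edgeR, where 7.22% of all genes were called. At an unadjusted p under 0.05, 4 and 1 were higher. DESeq2 called 1 and 0, where it called 932 of all 14572 genes higher and 876 lower. With the replicate number as a block 3 of the 12 and 3 of the 7 were higher, against 1252 of all 14572 genes.

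Markers of other cells were read in the same libraries. In bulk RNA, fewer cells of a type and less RNA per cell cannot be told apart. Macrophage markers rose in p21 cells in 4 of 5 tested genes (19.3% of all genes were higher), with a summed level of 18.9 to 34.3 CPM against 7.85 to 9.93 CPM in control and 6.41 to 9.88 CPM in p16 libraries. Of 6 pericyte and smooth muscle markers 4 rose and 1 fell in p21 and 3 rose in p16 cells, where 39.9% and 7.22% of all genes were called, with sums of 1570 to 1714 CPM in p21, 1572 to 1616 CPM in p16 and 1330 to 1420 CPM in control libraries. Skeletal and heart muscle markers, read because Ankrd1 is abundant in muscle, had summed levels of 10.9 to 17.9 CPM in control, 18.9 to 26.4 CPM in p21 and 17.4 to 22.3 CPM in p16 libraries. Of their 4 tested genes 1 rose in p21 cells. Myog, which marks differentiating muscle, had no read in control or p16 libraries. Endothelial markers summed to at most 7.74 CPM and those of epithelium and mesothelium to at most 21.1 CPM in any library, and Cldn5 had no read in p21 or p16 libraries. In p21 cells 1 of 5 tested endothelial and 1 of 5 tested epithelial and mesothelial markers rose. In p16 cells 1 endothelial marker rose, and the mesothelial Msln fell. The part of these markers in the differences above was not tested.

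For each target, the 3 genes with the most similar pattern were taken as those with the highest Pearson correlation of log2(CPM + 1) over the 9 libraries, among 10474 genes with a mean of at least 4 CPM. The correlations join differences between groups with differences within them, share 9 libraries and their scaling, and are a description only. For Cyr61 they included Arl6ip1 (r = 0.978) and Scd1 (0.977). For Ctgf they were Skil (0.937), Csnk1g3 (0.934) and Lnx2 (0.932). Ankrd1 was most like Tnfaip3 (0.977), Tll1 (0.969) and Map4k5 (0.968), and Amotl2 most like Crybg3 (0.965), Lama2 (0.938) and Arhgap31 (0.909). No target was among the 3 genes most like another target.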

How the data were processed

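RNA of 9 mouse fibroblast libraries was measured with a TruSeq version 2 kit, per the labels' protocols, a kit that does not mark strand. The authors deposited raw read counts per gene symbol, and the submitters' processing notes name featureCounts 1.4.6, Subread, Bowtie2 2.2.6, TopHat2 2.0.14 and mm10. Which annotation and strand setting were used, and how multi-mapping reads were counted, is not given in the sources used here. In GENCODE M21, 23.2% of the exon length of Ctgf overlaps the antisense gene Gm15270, whose reads could not be told apart. The overlap was at most 1.25% for the other members.

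Counts were filtered with filterByExpr, scaled by TMM and fitted as 3 group means over 9 libraries with glmQLFit and glmQLFTest of edgeR 4.0.16 in R 4.3.3, with Benjamini-Hochberg adjustment over 14572 genes. Each SE was derived from the fold change and its F statistic. All genes were not counted at an unadjusted p under 0.05, so counts at that threshold have no background share and are not to be set against the adjusted shares. The code was checked first on simulated data, with 200 genes changed between p21 and control libraries. At a true 1.2-fold change 2 of 50 genes were recovered, and at 1.5-fold 32 of 50. Among changed genes with a mean of at least 10 CPM the counts were 2 of 28 and 30 of 31. In the data 39.9% of all genes passed between these groups, far more than were changed in the simulation. The adjusted threshold was therefore stricter in the simulation, and its recovery rates do not carry over to the 10 genes. A gene that did not pass is still not shown to be unchanged.

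Groups and replicate numbers are those of the titles. Same-numbered p16 and control libraries deviated together from their group means (correlations 0.25, 0.11 and 0.55), as did p21 and p16 libraries (0.16, 0.29 and 0.48), each above 0.1, so blocked values stand beside results of these comparisons where they change a call. For p21 and control the values were 0.18, 0.025 and 0.49. Libraries of unlike number also correlated: p16 replicate 2 with control replicate 1 at 0.3, p21 replicate 2 with control replicate 1 at 0.36, and p21 replicate 2 with p16 replicate 1 at 0.14. Replicate 3 correlated negatively with every library of another number in another group. The numbers thus set replicate 3 apart more clearly than they tell replicates 1 and 2 apart. No label states a pairing. Replicates differed by more than sampling noise (chi-square per degree of freedom of 10.4 or more), and none was merged.

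The 10 members and all gene lists were chosen with earlier results of these data known. Named genes are the 10 members, Cdkn1a and Cdkn2a, up to 4 called genes per list and comparison by lowest adjusted p, and the 3 genes most like each target, of which 1 is not reported here. Msln, Dcn, Lum, Pdgfra, Thy1, Myog, Cldn5, Xist and Ddx3y were named after their values were seen. Alternatives were other scalings, filters, DESeq2 1.42.0, 2-group fits, the replicate block, replicates 1 and 2 only, and leaving out each library. Protein sequences were not used here. Promoter windows are from RefSeq on GRCm38.p6.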

Additional observations from a re-analysis of the deposited data

Results flagged for a closer look

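The effects of p21 and p16 differed, by the direct test between the 2 groups, for Tead2 and Cyr61 among the 10 genes. Over all genes tested 12.8% were called, 6.64% lower, and 18.5% had all p21 below all p16 libraries. For Cyr61 the log2 fold change of p21 minus p16 was -0.22 (adjusted p = 0.00824), with all 3 p21 libraries below all 3 p16 libraries. That call was lost without p21 replicate 1 (adjusted p = 0.0503). For Tead2 the log2 fold change was -0.27 (adjusted p = 0.0211), again with no overlap. The Tead2 call was lost under 4 of 17 alternatives (adjusted p up to 0.0968). Groups of 3 libraries were not searched for single libraries far from the others.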

How the results depend on the processing

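In p21 against control cells Wwtr1, Tead2 and Cyr61 kept their direction and passed under all 17 alternatives. With library size alone, with the 2 groups compared alone and with replicates 1 and 2 of each group, 1 of the 10 genes was called higher in p21 cells. For p16 against control, 0 of the 10 were called higher with no filter, with 2 groups alone and with replicates 1 and 2, 2 with DESeq2 and 4 with the replicate block. Genes called higher and lower in p16 cells, 520 and 532, came to 932 and 876 with DESeq2, 299 and 256 with 2 groups alone, 1252 and 1221 with the replicate block and 340 and 253 with replicates 1 and 2. For p21 minus p16 the replicate block gave 1715 higher and 1781 lower genes in place of 902 and 968, and 1 of the 10 higher. In p21 against control the replicate block gave 3502 and 3739 genes, Ankrd1 passed (adjusted p = 0.01), 11 of the further targets were higher, 1 CCN gene was higher and 2 lower, and 3 SRF and MRTF genes were lower. In p16 cells Cdkn1a passed with the block (adjusted p = 0.0308). Beyond these and the calls given with the results, it changed none of the 10 genes. Replicates 1 and 2 only turned the log2 fold change of Tead1 in p16 cells to 0.0303. With longest transcript lengths 6 places of the control order were kept.

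Leaving out 1 library gave 1 to 3 of the 10 genes higher and 2 to 3 lower in p21 cells. It gave 0 to 2 higher in p16 cells, and 0 to 1 higher and 0 to 2 lower in p21 minus p16. Over all genes, those called higher and lower ranged from 2123 to 2895 and from 2101 to 2940 in p21 cells. The ranges were 156 to 498 and 66 to 451 in p16 cells, and 284 to 1218 and 316 to 1246 in p21 minus p16. The values that changed sign without 1 library were all uncalled: in p21 cells the log2 fold changes of Amotl2 (-0.051 to 0.0022), Ctgf (-0.00064 to 0.082) and Tead4 (-0.029 to 0.36), in p16 cells Tead1 (-0.064 to 0.041), Tead3 (-0.13 to 0.0074) and Tead4 (-0.25 to 0.12), and in p21 minus p16 Ankrd1 (-0.19 to 0.069). The cause was not tested, except that leaving out libraries lowers the degrees of freedom by construction. Each library holds 56864342 counts or more. Precision is limited by 3 libraries a group.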
